A study of Mus musculus with 32 samples.

Results

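The genes described here code for the nuclear-encoded part of oxidative phosphorylation (OXPHOS) in mouse liver. They were chosen by symbol from the authors' log2 table: every gene beginning with Nduf, Uqcr, Atp5, Sdha, Sdhb, Sdhc or Sdhd, or with Cox and a digit from 4 to 8, pseudogenes left out. This gave 92 of the 13432 genes in that table, and all 92 were among the 14456 genes tested. They comprise 7 core subunits, 30 accessory subunits and 8 assembly factors of complex I, 4 subunits and 4 assembly factors of complex II, 8 subunits of complex III, 14 genes of complex IV, and 17 genes of ATP synthase. The livers came from male mice of the inbred strain C3H/HeNCrl, all fed a high fat diet and housed in short light (SL) or long light (LL). Animals were killed at zeitgeber time (ZT, hours on the light schedule) 0, 6, 12 or 18, with 4 mice in each of the 8 groups and 32 libraries of polyadenylated RNA in all. The labels record no genetic change in any group. No source used here gives the length of the light phase in either photoperiod or defines ZT0, so a given ZT need not be the same time after lights on in the 2 photoperiods.

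Oxidative phosphorylation passes electrons from NADH (complex I) and succinate (complex II) through complexes III and IV to oxygen, and the proton gradient built on the way drives ATP synthase. Most subunits are coded in the nucleus and imported, and a few are coded by mitochondrial DNA, so each complex is assembled from both sources with the help of assembly factors. Liver relies on the pathway for fatty acid oxidation, gluconeogenesis and urea synthesis, and hepatocytes are rich in mitochondria.

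Library LL ZT12 replicate 3 stood apart in these genes, so each result is given with all 32 libraries and again with the other 31. In each library the deviation of a gene was its log2 CPM (CPM is the read count scaled to library size) minus its mean over all libraries, and the median over the 92 genes was taken. This median was 0.80 in LL ZT12 replicate 3 and lay between -0.22 and 0.18 in the other 31 libraries. Against its 3 group mates the library was higher in 85 of the 92 genes, with a median difference of 0.91 on the log2 scale. Ndufb2, Cox8a and Cox5b differed most, by 1.53, 1.51 and 1.49, whereas Sdha, the flavoprotein of succinate dehydrogenase, and Ndufs1, the largest core subunit of complex I, differed by -0.87 and -0.58. The same library was higher by a median of 0.71 in 137 cytosolic and by 0.60 in 79 mitochondrial ribosomal protein genes, and by 0.41 in the 955 tested genes with under 1000 exon bases, against 0.01 over all tested genes. In the 13 enzymes of the tricarboxylic acid (TCA) cycle its difference was -0.04. Its total count of 22736081 was within the range of the series (9095615 to 27462776), and its mean correlation with its group mates was 0.969, against 0.981 to 0.989 in the others. Hepatocyte markers were high in every group (Alb, serum albumin, at 88075 to 100305 CPM in the group means). The length slope, the slope of deviation per doubling of exon length over all tested genes, was -0.149 in LL ZT12 replicate 3. It lay between -0.053 and 0.047 in the other 31 libraries. The part of transcript length or RNA quality in the position of this library, or of any other, was not tested.

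**Figure D1:**
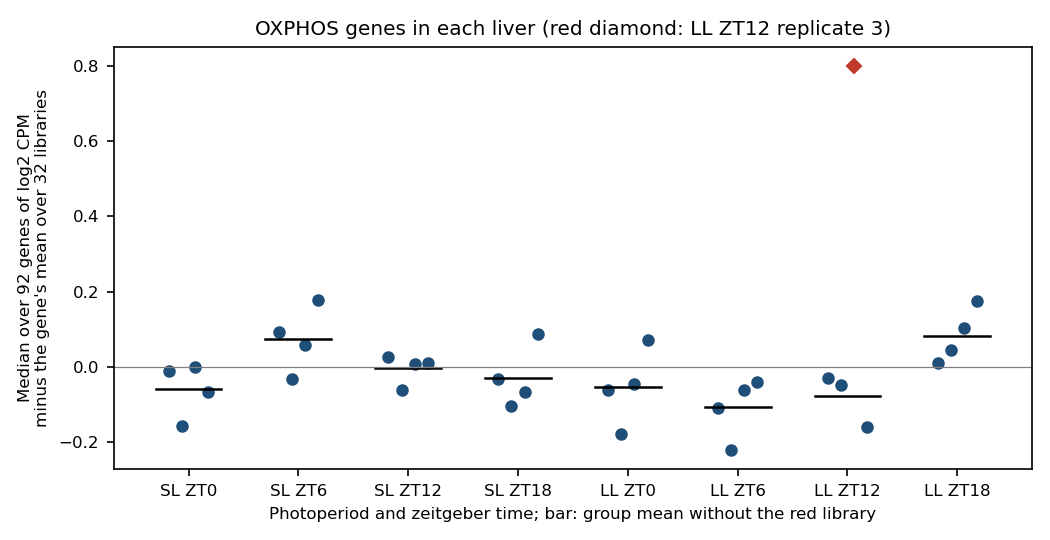
Each point is a liver: the median over the 92 genes of log2 CPM minus the gene's mean over 32 libraries, by photoperiod and ZT, with bars at the group means without the red library. The red diamond, LL ZT12 replicate 3, lies at 0.80, and the other libraries lie between -0.22 and 0.18.

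Levels differed widely between the complexes. As mean CPM per kilobase of the principal transcript, the median gene stood at 203 for the complex II subunits, 178 for complex IV, 178 for ATP synthase, 175 for complex III, 75.3 for the complex I core and 74.7 for 29 of its accessory subunits (Ndufb1 had no length). Assembly factors were far lower, at 9.14 for complex I and 5.24 for complex II. The catalytic beta subunit of ATP synthase, Atp5b, had the highest level of all at 664 CPM per kilobase, followed by Atp5g3 at 511 and the alpha subunit Atp5a1 at 494. Among genes for interchangeable forms of a subunit, a single member gave most of the transcripts. Of the 3 genes for the c subunit that forms the rotor ring of ATP synthase, Atp5g3 stood at 511, Atp5g2 at 24.8 and Atp5g1 at 23.3, the last computed on a principal transcript of 4715 bases. Ndufa4 stood at 391 against 0.934 for its paralog Ndufa4l2, and Cox7a2, the form found in liver, at 198 against 2.46 for Cox7a1, the form of heart and muscle. Cox7a2l, a factor for joining complexes III and IV, stood at 45.1. Cox4i1, Cox6a1 and Cox8a, the general forms of their subunits, stood at 412, 268 and 198. The related genes Cox4i2, Cox6a2, Cox6b2 and Cox8b are not analysed here.

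The ZT of the highest group mean was the same for most of the genes within a photoperiod. In SL, ZT6 held the highest group mean for 72 of the 92 genes, against 28.1% of all tested genes. In LL over 31 libraries, ZT18 held the highest mean for 80 of the 92, against 24.6% of all tested genes. With replicate 3 included, LL ZT12 held it for 56 and LL ZT18 for 33. These counts are descriptions, and since livers were sampled as whole tissue, fewer hepatocytes and less transcript per hepatocyte cannot be told apart in them.

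**Figure D2:**
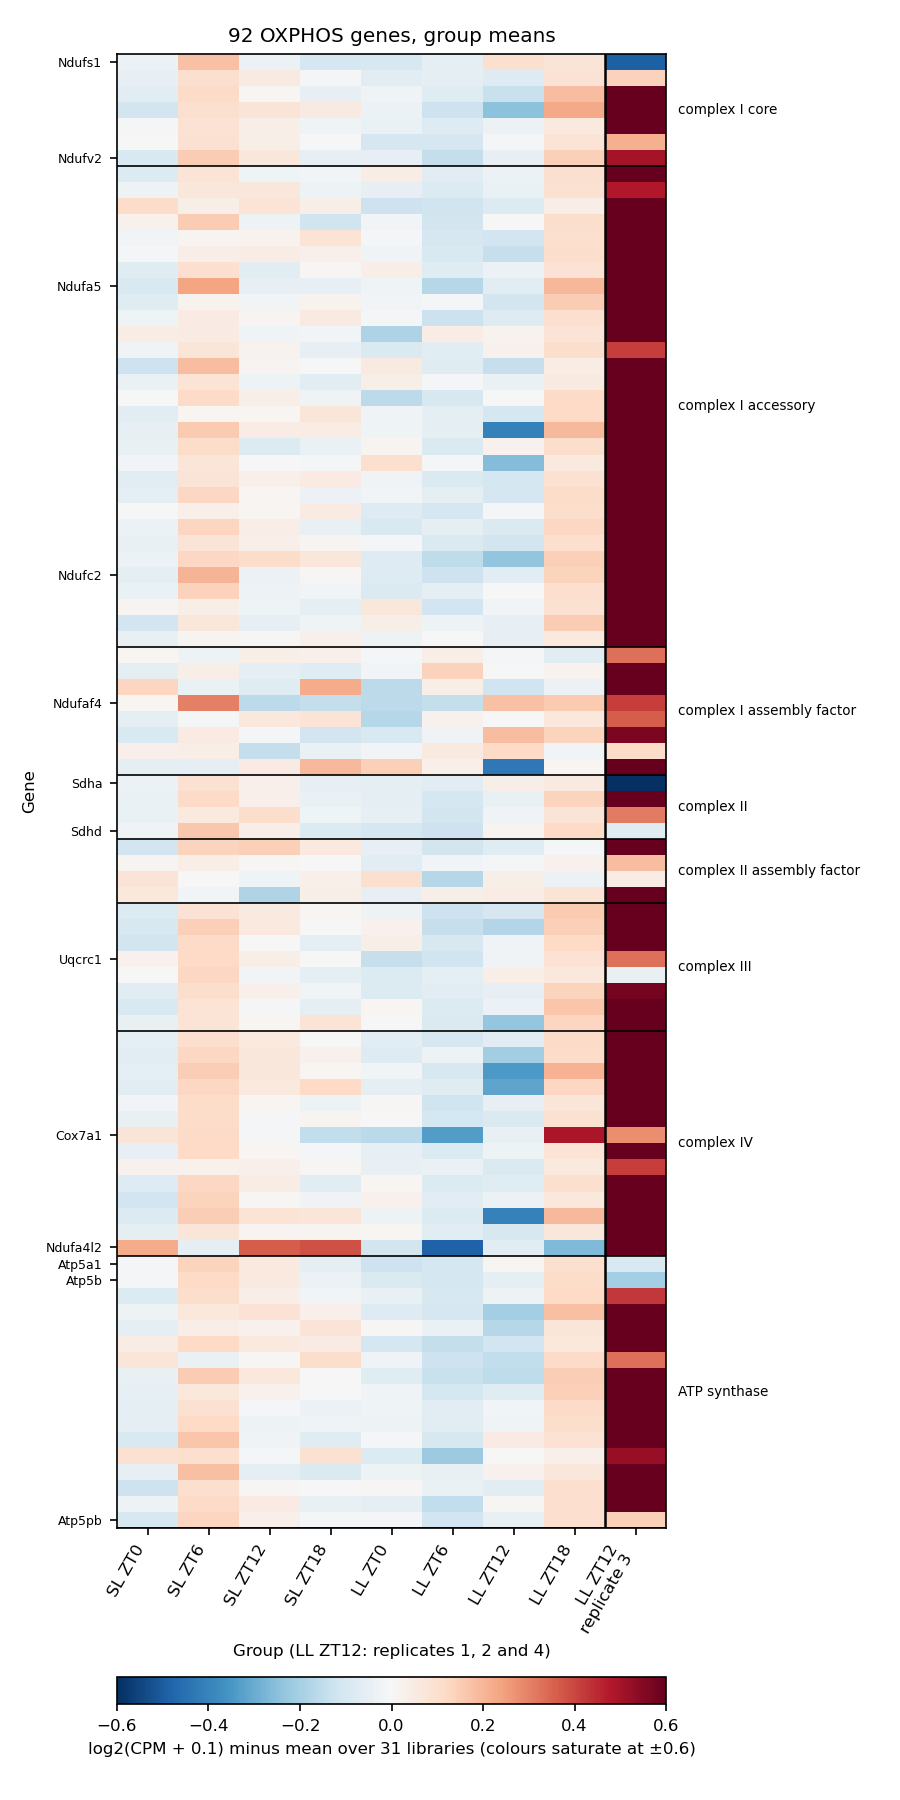
Group means of log2(CPM + 0.1) minus the mean over 31 libraries for the 92 genes, ordered by complex, with the columns SL ZT0 to LL ZT18 and, at the right, LL ZT12 replicate 3 alone (colour scale in log2 units, a few rows named). SL ZT6 holds the highest mean of 72 genes and LL ZT18 that of 80, and the right-hand column is red in all but a few genes such as Sdha and Ndufs1.

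Time of day was tested within each photoperiod with edgeR's quasi-likelihood test, its p adjusted over all tested genes. In SL the test called 4 of 92 genes, 4.35%, where 19.1% of all tested genes were called. These were Ndufaf4 (edgeR adjusted p = 0.00498), Sdhd (0.0235), Atp5pb (0.0388) and Atp5a1 (0.0408). Over 31 libraries it called 13 genes, 14.1%, against a background of 26.9%, and the 4 were among them. The 6 with the smallest p were then Ndufa5, Ndufaf4, Ndufs1, Ndufc2, Sdhd and Atp5pb (edgeR adjusted p = 0.00126 to 0.00413). In LL the test called 6 genes, 6.52%, with 18.3% in the background: Ndufaf4 (edgeR adjusted p = 0.00886), Atp5a1 (0.00995), Sdhd (0.0169), Atp5b (0.0233), Uqcrc1 (0.0314) and Ndufa8 (0.0473). Over 31 libraries it called 26, 28.3%, against 21.2%, all 6 among them. All 10 skeletal muscle markers were also called for time of day in LL in both fits (edgeR adjusted p at most 0.0158 with all libraries), and 0 were in SL (7 at an unadjusted p under 0.05). Their sum was 14.9 to 275 CPM at LL ZT18 and 0.949 to 1.53 CPM at LL ZT12, and their part in the LL result was not tested. Core subunits of complex I made up 6 of these 26 and ATP synthase genes 7, whereas complex IV gave 1. Those with the smallest p were Atp5a1, Ndufa5, Ndufs3, Sdhd, Ndufc2 and Uqcrfs1 (edgeR adjusted p = 0.00101 to 0.00491). The SL count of 4 became 1 without SL ZT6 replicate 1, SL ZT6 replicate 3 or SL ZT18 replicate 2, and 2 without SL ZT0 replicate 2 or 4, SL ZT6 replicate 4 or SL ZT18 replicate 3. The LL count of 6 became 15, 13 and 30 without LL ZT12 replicates 1, 2 and 4, and 3 without LL ZT18 replicate 2. Replicate 3 of LL ZT12 stays in these fits and weighs more in its group when a group mate is left out. The share of all tested genes called with a library left out is not reported here, so these counts have no background beside them. Over 31 libraries the SL count of 13 became 8 without SL ZT6 replicate 1 or 4, and the LL count of 26 became 17 without LL ZT12 replicate 4 and 13 without LL ZT18 replicate 4.

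A change of the photoperiod difference over the day is what the interaction of photoperiod and ZT tests. With all libraries edgeR called 9 of the 92 genes, 9.78%, below the 32.7% of all tested genes called. Without LL ZT12 replicate 3 it called 43, 46.7%, against a background of 38.7%, and the 9 were among the 43. By complex, the 43 were 5 of 7 core and 12 of 30 accessory subunits of complex I, 1 of its 8 assembly factors, all 4 subunits of complex II, 6 of 8 genes of complex III, 4 of 14 of complex IV and 11 of 17 of ATP synthase. None of the 4 assembly factors of complex II was called in either fit (1 and 0 at an unadjusted p under 0.05). The count of 9 became 5 when any one of SL ZT6 replicates 1, 2 and 4, SL ZT18 replicates 2 and 3, or LL ZT6 replicates 1, 2 and 4 was left out. It became 21 without LL ZT12 replicate 4, a fit that keeps replicate 3. The shares of all tested genes called in these fits are not reported here. Ndufaf4, Sdhd, Atp5a1, Atp5pb and Atp5b were called with any 1 of the 32 libraries left out, and Ndufv2, Uqcrc1, Ndufa5 and Ndufc2 lost the call in 14, 18, 17 and 17 of those 32 fits.

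Within complex I, the assembly factor Ndufaf4, which helps build the membrane-bound intermediate, had the smallest interaction p of the 92 genes with all libraries (edgeR adjusted p = 0.000114). Over 31 libraries its adjusted p was 0.000101 by edgeR, and Ndufa5, Atp5a1 and Sdhd had smaller ones. At ZT6 it stood at 39.1, 43.3, 36.5 and 41.5 CPM in the SL livers and at 35.1, 28.3, 29.3 and 25.6 CPM in the LL livers. All 4 SL livers lay above all 4 LL livers, and the log2 difference of SL minus LL was 0.44 ± 0.11 (SE, n = 4 per group, edgeR adjusted p = 0.00394). At ZT12 the order was turned round. SL livers then stood at 29.9, 25.1, 31.01 and 30.7 CPM and LL livers at 37.3, 34.1, 43.3 and 38.9 CPM, again without overlap, also when the third LL value, from replicate 3, is set aside. The other complex I assembly factors with the next smallest p, Ndufaf3 and Ndufaf7, had edgeR adjusted interaction p of 0.165 and 0.196.

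Of the complex I core, Ndufv2, an iron-sulfur subunit of the NADH-oxidising module, had an edgeR adjusted interaction p of 0.0388 (0.00159 over 31 libraries), and Ndufs1 and Ndufv1 had 0.0722 and 0.0721 (0.000477 and 0.017). Ndufs1 carries iron-sulfur clusters, and Ndufv1 binds FMN and NADH. Ndufs3, Ndufs8 and Ndufs7 of the core had 0.176, 0.351 and 0.665 (0.000693, 0.102 and 0.065). Ndufv2 stood at 106, 99.97, 99.95 and 105 CPM in the SL livers at ZT6 and at 82.2, 86.0, 86.0 and 79.8 CPM in the LL livers. The groups did not overlap. In LL ZT12 replicate 3 the gene stood at 130.1 CPM, against 98.2, 92.5 and 78.1 CPM in the other 3 livers of its group. Among accessory subunits, Ndufa5 of the peripheral arm and Ndufc2 of the membrane arm both had 0.0417, and 3.43e-05 and 0.000343 over 31 libraries, and Ndufa9 had 0.0716 (0.00786). At ZT6, Ndufa5 stood at 50.8, 47.7, 49.2 and 52.8 CPM in SL and at 37.7, 34.3, 40.9 and 38.1 CPM in LL. Every SL liver was above every LL liver. In LL ZT12 replicate 3 it reached 98.9 CPM, against 38.6 to 42.0 CPM in its group mates.

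In complex II, Sdhd, a membrane anchor of succinate dehydrogenase that helps hold its haem and quinone site, had an edgeR adjusted interaction p of 0.000794 (7.7e-05 over 31 libraries). At ZT6 it stood at 315, 274, 307 and 278 CPM in SL and at 255, 224, 258 and 228 CPM in LL. At ZT18 it stood at 249.8, 241, 248.5 and 250.1 CPM in SL and at 271, 283, 289 and 297 CPM in LL. The SL livers were all above the LL livers at ZT6 and all below them at ZT18. Its log2 differences were 0.28 ± 0.06 (SE, edgeR adjusted p = 0.00189) and -0.21 ± 0.06 (0.0349), and its level in LL ZT12 replicate 3, 248.99 CPM, was below its group mates by 0.09 on the log2 scale on average. Sdhb, the iron-sulfur subunit, had an edgeR adjusted interaction p of 0.138 (0.00392 over 31 libraries), and Sdhc, the other membrane anchor, 0.187 (0.0202). Of the assembly factors, Sdhaf4 had 0.0915 and Sdhaf1, Sdhaf2 and Sdhaf3 had 0.699 to 0.733.

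In complex III, Uqcrc1, a core protein of the matrix side, had an edgeR adjusted interaction p of 0.0388 (0.00817 over 31 libraries), Uqcrc2, its partner, 0.0875 (0.0285), and Uqcrfs1, the Rieske iron-sulfur protein, 0.166 (0.00331). Uqcrc1 stood at 309, 299.7, 293 and 311 CPM in SL at ZT6 and at 261, 246, 266 and 257 CPM in LL, with no overlap. In complex IV no gene was called with all libraries, where 1 had an unadjusted p under 0.05. The 3 smallest p belonged to Cox7a1, Cox6b1 and Cox7a2 (edgeR adjusted p = 0.106, 0.213 and 0.249). Over 31 libraries Cox7b, Cox6b1, Cox4i1 and Cox5b were called, with edgeR adjusted p of 0.00934, 0.0215, 0.0317 and 0.0321.

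ATP synthase gave 3 of the 9 genes called. LL ZT12 replicate 3 differed from its group mates by -0.10 for Atp5a1, -0.15 for Atp5b and 0.19 for Atp5pb on the log2 scale. Atp5a1 (edgeR adjusted p = 0.00123 for the interaction) stood at 1391, 1279, 1321 and 1370.2 CPM in SL at ZT6 and at 1170.1, 1117, 1150.1 and 1099 CPM in LL. At ZT18 it stood at 1191, 1132, 1177 and 1182 CPM in SL and at 1307, 1287, 1277 and 1355 CPM in LL. The groups were apart at both times, in opposite order. Atp5b (0.0061) stood at 1461, 1292, 1335 and 1467 CPM in SL at ZT6 and at 1177, 1162, 1219 and 1181 CPM in LL. Atp5pb, which codes for the b subunit of the peripheral stalk (0.00441), stood at 345, 319.5, 347 and 339.7 CPM in SL at ZT6 and at 289, 282, 297 and 275 CPM in LL. Neither gene overlapped between the photoperiods at ZT6.

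**Figure D3:**
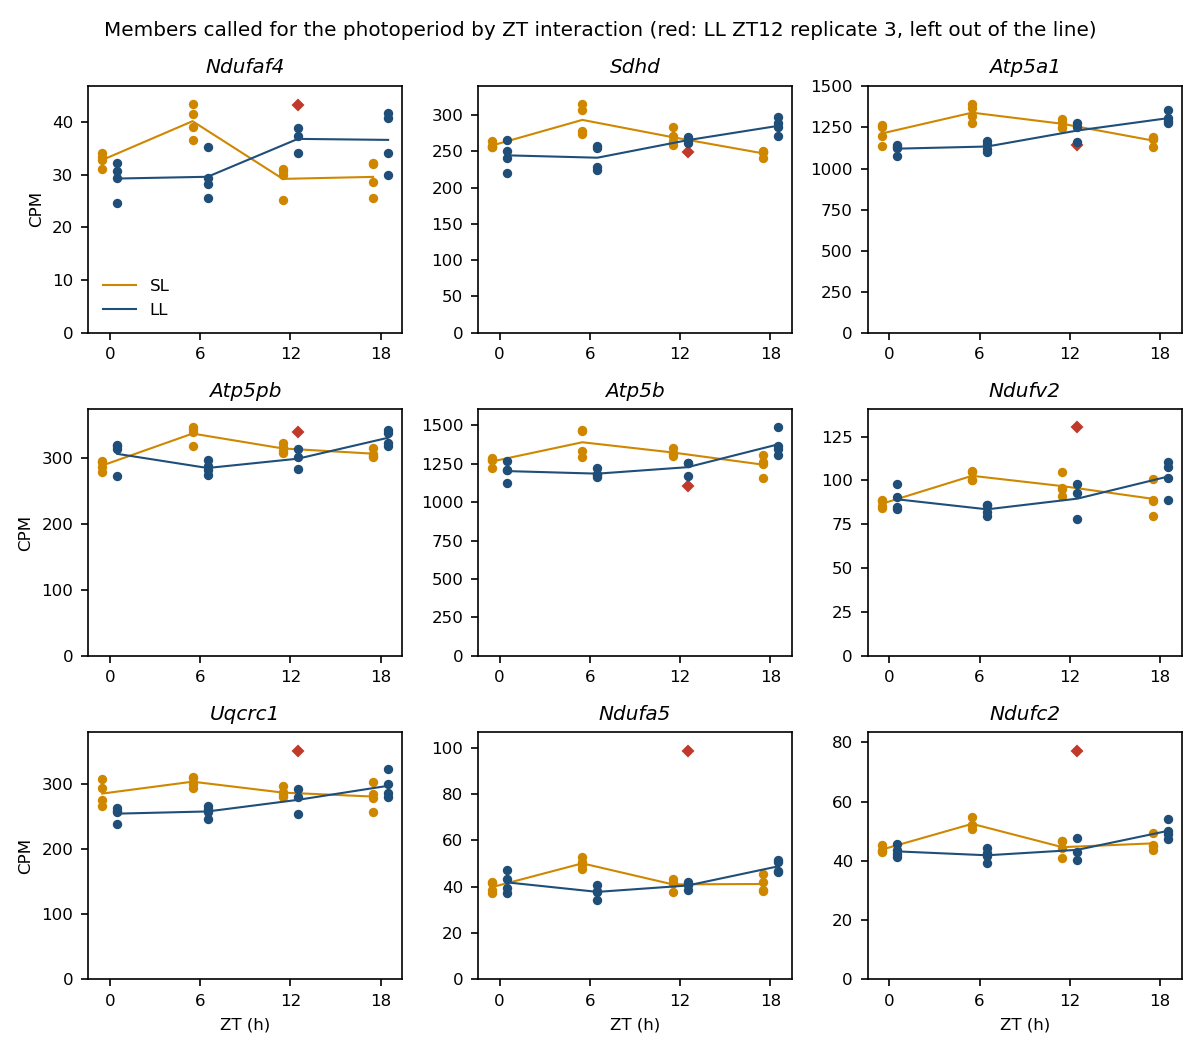
CPM against ZT in hours for the 9 genes called for the interaction with all 32 libraries, 1 point per liver (orange SL, blue LL), lines through the group means without the red library, LL ZT12 replicate 3. In every panel the SL line is highest at ZT6, and the red point lies far above the others for Ndufa5 (98.9 CPM) but not for Sdhd, Atp5a1 or Atp5b.

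At ZT6 most of the genes had higher values in SL, and 8 passed the test. The log2 difference of SL minus LL was above 0 in 85 of the 92 genes with a median of 0.18 (0.19 and 86 genes over 31 libraries), while the median over all tested genes was -0.01. All 17 ATP synthase genes, all 37 subunits of complex I, all 4 of complex II, all 8 of complex III and all 14 of complex IV were above 0. Of the complex I assembly factors 2 of 8 were above 0, with a median of -0.05. With all libraries edgeR called 8 genes as higher and 0 as lower, 8.7% of the 92. Of all tested genes 6.9% were called as higher and 8.38% as lower, 15.3% in all. Over 31 libraries it called 37 as higher and 0 as lower, 40.2%, against 10.7% and 10.2%, 20.9% in all. The 8 were Sdhd, Atp5a1, Ndufaf4, Atp5pb, Atp5b, Uqcrc1, Ndufv2 and Ndufv1, with log2 differences of 0.19 to 0.44, and they were among the 37. The 37 were 6 of 7 complex I core subunits, 8 of 30 accessory subunits, Ndufaf4, all 4 complex II subunits, 5 of 8 genes of complex III, 5 of 14 of complex IV and 8 of 17 of ATP synthase. Counted without a model, all 4 SL livers lay above all 4 LL livers in 26 of the 92 genes, 28.3%, where 9.77% of all tested genes did, and below them in 0, where 10.6% did. The median difference lay between 0.13 and 0.21 with any 1 library left out and between 0.17 and 0.19 under the other alternatives. The count of 8 became 5 without SL ZT6 replicate 1, 2 or 4 or LL ZT6 replicate 2 or 4, and the count of 37 became 19 without SL ZT6 replicate 4 and 22 without LL ZT6 replicate 2. The sum of 10 skeletal muscle markers at ZT6 was 0.524 to 0.767 CPM in SL and 0.732 to 32.9 CPM in LL, with all 10 lower in SL and 0 called by edgeR (8 at an unadjusted p under 0.05), and their part in the result was not tested. Of 4 brown fat markers, Ucp1, the defining one, was at 0 in 28 of the 32 libraries, and Cidea and Dio2 were at 0 in 19 and 29. The fourth, Elovl3, a fatty acid elongase that liver also makes, gave nearly all of their sum, which was 77.5 to 115 CPM in SL and 253 to 449.8 CPM in LL at ZT6, and 439 to 761 CPM in SL and 197 to 272 CPM in LL at ZT18, without overlap at either time.

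At ZT18 most of the genes had lower values in SL, but 1 passed the test with all libraries and 10 over 31. SL minus LL was above 0 in 9 of the 92 genes with a median of -0.11 (8 genes and -0.12 over 31 libraries), against 0.01 over all tested genes. With all libraries edgeR called Sdhd alone, lower in SL, 1.09% of the 92 with 4.39% of all tested genes called as lower, 4.82% as higher and 9.21% in all. Over 31 libraries it called 10 as lower and 0 as higher, 10.9%, against 7.24% and 6.31%, 13.5% in all. The 6 with the smallest p were Ndufs3, a core subunit next to the quinone site, at -0.25 ± 0.06 (SE, edgeR adjusted p = 0.00778), Sdhd at -0.22 ± 0.06 (0.00828), Atp5a1 at -0.17 ± 0.05 (0.014), Ndufa5 at -0.26 ± 0.07 (0.0151), Ndufs1 at -0.19 ± 0.06 (0.0297) and Ndufa9 at -0.17 ± 0.05 (0.0359). Ndufs3 stood at 75.3, 74.2, 74.4 and 82.1 CPM in SL and at 90.4, 87.8, 88.4 and 93.6 CPM in LL, without overlap. All SL livers lay below all LL livers in 13 genes, 14.1%, where 7.94% of all tested genes did, and above them in 3, where 9.55% did. The median kept its sign with any 1 library left out (-0.15 to -0.09). The count of 1 became 0 without any single SL ZT18 library or LL ZT18 replicate 2 or 3, and 2 without LL ZT18 replicate 4. The count of 10 became 3 without SL ZT18 replicate 2 or 3, 4 without LL ZT12 replicate 1 or 4 or LL ZT18 replicate 4, and 6 without LL ZT12 replicate 2 or LL ZT18 replicate 3. All 10 skeletal muscle markers had values below 0 for the difference here (sum 0.662 to 43.5 CPM in SL, 14.9 to 275 CPM in LL, median log2 difference -2.38 with all libraries). With all libraries 1 was called, Myh4 (edgeR adjusted p = 0.0082). Over 31 libraries Myh4 (edgeR adjusted p = 0.0069) and Mylpf (0.0452) were called. In LL ZT18 replicates 1 to 4 the muscle sum was 35.9, 82.1, 275 and 14.9 CPM, and the median deviation of the 92 genes was 0.01, 0.04, 0.10 and 0.18. The part of muscle RNA in the ZT18 values was not tested.

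At ZT12 the sign of the difference rested on LL ZT12 replicate 3. With it, SL minus LL was above 0 in 12 of the 92 genes with a median of -0.17, and edgeR called 3 genes, all lower in SL, with 6.4% of all tested genes called as lower and 6.05% as higher. These were Ndufaf4 (-0.40 ± 0.11, SE, edgeR adjusted p = 0.0132), Sdhaf4 (-0.40 ± 0.12, 0.0241) and Ndufb3 (-0.46 ± 0.16, 0.0489). Without it, the difference was above 0 in 73 genes with a median of 0.08, and edgeR called 2 other genes, both higher in SL, with 5.6% called as higher and 5.9% as lower. These were the accessory subunits Ndufb2 (0.47 ± 0.14, edgeR adjusted p = 0.0222) and Ndufc1 (0.35 ± 0.10, 0.0273), and Ndufaf4 then had -0.33 ± 0.11 (0.0505). Ndufb2 stood at 28.9, 24.4, 25.8 and 36.2 CPM in SL and at 22.5, 22.5 and 17.9 CPM in LL replicates 1, 2 and 4, with 60.1 CPM in replicate 3. For Ndufb3, LL livers stood at 43.7, 43.0, 92.2 and 43.4 CPM and SL livers at 44.4, 36.0, 41.4 and 40.0 CPM. All SL livers lay above all LL livers in 1 gene, where 7.75% of all tested genes did, and below them in 2, where 6.67% did. The count of 3 became 1 without SL ZT12 replicate 1 or 3, and 12, 11 and 17 without LL ZT12 replicates 1, 2 and 4. Those fits keep LL ZT12 replicate 3, and the shares of all tested genes called in them are not reported here. The count of 2 became 0 without SL ZT12 replicate 4, 1 without LL ZT12 replicate 4, 4 without SL ZT6 replicate 2, SL ZT18 replicate 4, LL ZT0 replicate 3 or LL ZT18 replicate 4, 5 without SL ZT6 replicate 4, LL ZT0 replicate 2 or LL ZT6 replicate 2, and 8 without LL ZT6 replicate 4.

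At ZT0 and over the day as a whole few or none of these genes were called. At ZT0 the median was -0.01, 44 of 92 genes were above 0, and edgeR called 0 genes, with 6.07% of all tested genes called as higher and 4.97% as lower, 11% in all (2 at an unadjusted p under 0.05). Over 31 libraries it called Ndufa8 as higher in SL (0.23 ± 0.07, SE, edgeR adjusted p = 0.0236), with 8.76% called as higher and 6.66% as lower. Ndufa8, an accessory subunit, stood at 88.1, 75.4, 87.4 and 79.7 CPM in SL and at 70.6, 67.5, 68.5 and 75.03 CPM in LL. The groups overlapped in no liver, and with all libraries SL lay above LL in 3 genes (8.94% of all tested genes) and below it in 0 (7.76%). That call was lost without SL ZT0 replicate 1 or 3 or LL ZT0 replicate 2 or 3, where the count was 0, and the count was 2 without SL ZT18 replicate 2 or 4, LL ZT0 replicate 4 or LL ZT12 replicate 4 and 3 without SL ZT0 replicate 2 or LL ZT18 replicate 4. For the mean of the 4 ZTs, edgeR called 0 of the 92 with all libraries and 0 over 31 (background 0.0% and 0.0205%), with 3 and 12 genes at an unadjusted p under 0.05, and DESeq2 called 0 in both. The median difference of the mean was -0.03, and 0.04 over 31 libraries.

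**Figure D4:**
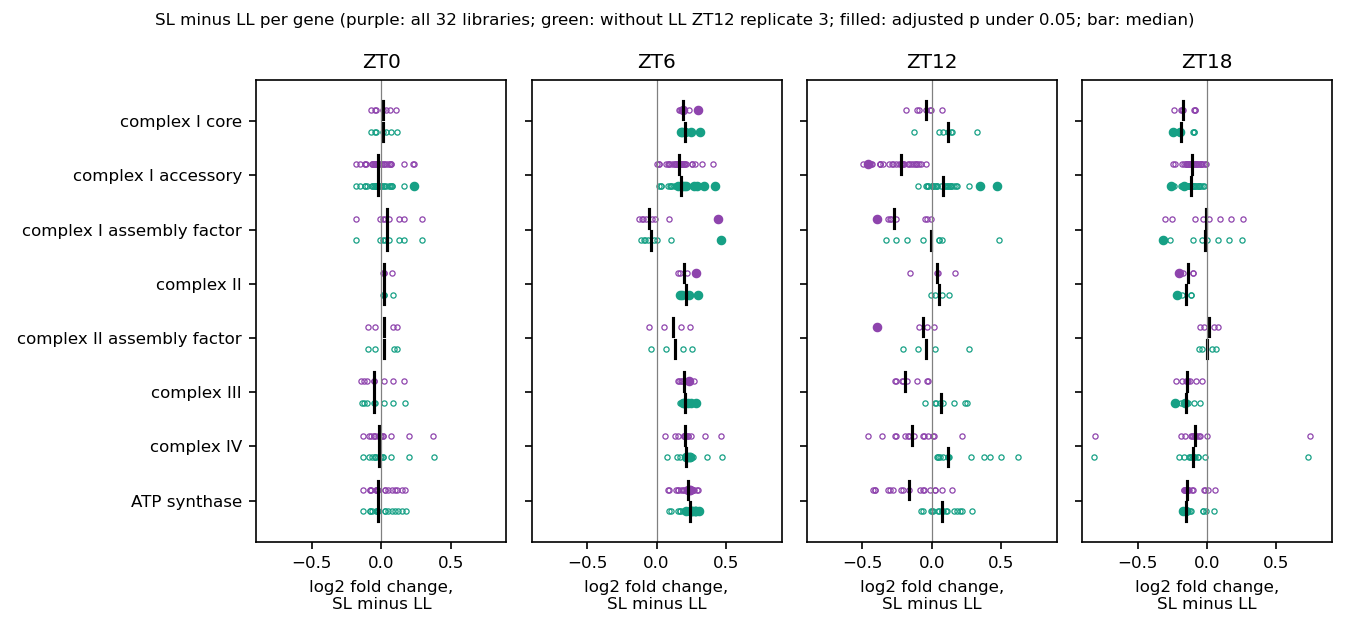
Log2 fold change of SL minus LL for each gene at each ZT, by complex, with all 32 libraries (purple) and without LL ZT12 replicate 3 (green), filled where the edgeR adjusted p is under 0.05, with black bars at the medians. At ZT6 nearly all points lie right of 0, at ZT18 most lie left of it, and at ZT12 the purple and green medians lie on opposite sides in most complexes.

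With samples 6 h apart, the group means define a 24 h wave whose amplitude and peak can be read from 2 differences. For the 11 genes called for time of day in both photoperiods over 31 libraries, the log2 amplitude had a median of 0.10 in SL (0.07 to 0.24) and 0.12 in LL (0.07 to 0.23). The peak fell at 4.59 to 9.03 h in SL, median 7.31 h, and at 14.4 to 18.6 h in LL, median 17.8 h. Ndufaf4 had the widest wave, with amplitudes of 0.24 and 0.23 and peaks at 4.59 and 14.8 h. Atp5a1 peaked at 7.31 and 15.8 h, Sdhd at 6.95 and 16.2 h, and Ndufa5 at 6.56 and 18.4 h. The shift of SL against LL ranged from -11.9 to -8.38 h, median -9.38 h. These waves come from the same calls as above and carry no test of their own. With 4 times a day, a 24 h wave cannot be told from another shape. Shifts of other genes are not reported here, and whether the shift is particular to these 11 genes was not tested. Outside them, the sum of the 4 brown fat markers, nearly all Elovl3, also differed between the photoperiods. At ZT0 this sum was 41.5 to 111 CPM in SL and 484 to 672 CPM in LL. At ZT12 it was 507 to 734 CPM in SL and 36.3 to 55.6 CPM in LL.

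Promoter stretches of 3 of the 5 genes whose interaction call held with any 1 of the 32 libraries left out are shown, so that genes called alike can be compared in sequence. Of the other two, Atp5a1 is named only, and Atp5pb, whose window has an E-box match 249 bases before the start inside an annotated exon, is not printed because exons cover the window. The stretches lie before the RefSeq start on GRCm38.p6, are written 5′ to 3′ on the strand of the gene, and leave out bases inside an annotated exon of any gene in GENCODE M21. Capitals mark a match to a searched motif: the NRF1 element in Ndufaf4 and the ETS element CCGGAAG, on the other strand, in Sdhd. The Ndufaf4 stretch is chr4:24897833-24898082 on the plus strand, the 250 bases before the start, the Sdhd stretch is chr9:50603850-50603909 on the minus strand, 60 bases, and the Atp5b stretch is chr10:128083057-128083272 on the plus strand, 216 bases.
Ndufaf4: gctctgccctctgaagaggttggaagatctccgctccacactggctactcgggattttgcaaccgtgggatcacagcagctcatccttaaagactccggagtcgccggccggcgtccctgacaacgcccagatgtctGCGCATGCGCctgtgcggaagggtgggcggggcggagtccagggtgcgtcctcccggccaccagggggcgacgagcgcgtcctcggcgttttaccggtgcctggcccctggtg
Sdhd: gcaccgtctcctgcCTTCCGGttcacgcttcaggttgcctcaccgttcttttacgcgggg
Atp5b: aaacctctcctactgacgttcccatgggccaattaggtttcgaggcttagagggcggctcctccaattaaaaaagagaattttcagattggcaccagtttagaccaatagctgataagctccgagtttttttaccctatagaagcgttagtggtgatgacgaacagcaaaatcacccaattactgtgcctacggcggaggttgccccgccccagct

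The match in Ndufaf4 begins 113 bases before the start and that in Sdhd 46 bases before it. Sdhd has a further NRF1 match 79 bases before the start, inside an annotated exon, and a match to TCAAGGTCA after the start. Atp5b has no match in its 300-base entry, which says only that these letters are not in that window. In all, 78 of the 92 genes have an entry in the RefSeq table (250 bases before to 50 after the start), with 83 promoters. Searched on both strands, the NRF1 element was in 22 of the 83, 26.5%, against 4.6% of all 32851 promoters, and the ETS element in 22, 26.5%, against 8.86%. The E-box CACGTG, bound by clock proteins among others, was in 7, 8.43%, against 7.15%. TCAAGGTCA, an element of estrogen-related receptors, was in 2, 2.41%, against 0.423%, and TGACCTTTG in 0, against 0.478%. The 40 promoters of genes called for the interaction over 31 libraries held the NRF1 element in 12, the ETS element in 11 and the E-box in 3. A match is a description of letters and not a binding site.

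Complex IV held the 2 genes with the widest range of group means. Ndufa4l2, a hypoxia-induced paralog of Ndufa4, had a range of 0.84 on the log2 scale and a mean of 0.873 CPM (452 reads over all libraries). At ZT18 it stood at 1.48, 0.82, 1.18 and 0.931 CPM in SL and at 0.615, 0.585, 0.622 and 0.791 CPM in LL. The groups were apart, but the test did not call it (0.74 ± 0.34, SE, edgeR adjusted p = 0.19). It shares 32 exon bases on opposite strands with Shmt2, a gene with 135067 reads, so its reads are uncertain. Cox7a1 had a range of 0.81. At ZT18 it stood at 0.766, 0.868, 0.662 and 0.993 CPM in SL and at 1.23, 1.46, 2.49 and 0.659 CPM in LL, with overlap (-0.81 ± 0.31, edgeR adjusted p = 0.104). The highest Cox7a1 value, in LL ZT18 replicate 3, came from the liver with the highest sum of skeletal muscle markers, 275 CPM, and the lowest of that group from the liver with the lowest sum, 14.9 CPM. All 10 markers were tested and 9 were at 0 in 7 or more libraries. The part of muscle RNA in the Cox7a1 values was not tested. At the other end, Sdhaf2, an assembly factor that helps attach FAD to Sdha, had the narrowest range of group means with all libraries, 0.10.

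**Figure D5:**
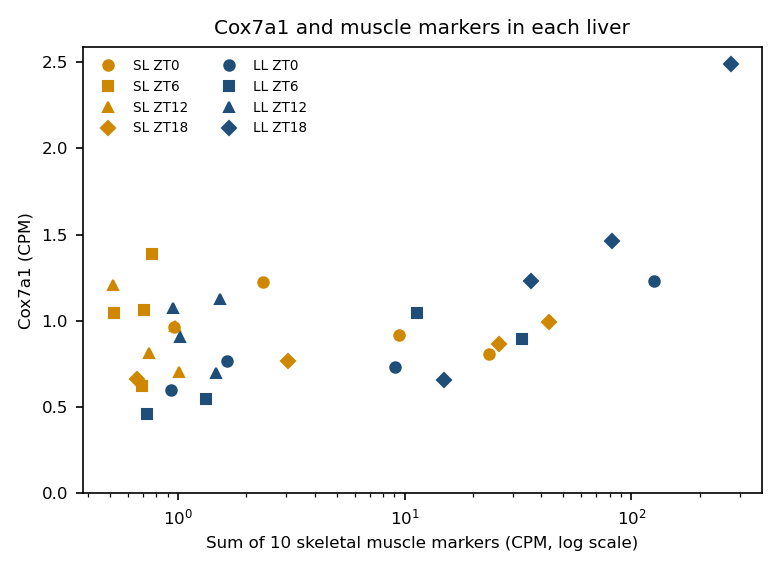
Cox7a1 in CPM against the sum of 10 skeletal muscle markers in CPM on a log axis, 1 point per liver, coloured by photoperiod and shaped by ZT. The LL ZT18 liver with 275 CPM of muscle markers has the highest Cox7a1 value, 2.49 CPM, and the remaining livers lie below 1.5 CPM.

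The median within-group SD of log2 CPM was 0.20 over the 92 genes with all libraries, near the 0.21 of all tested genes, and 0.11 without LL ZT12 replicate 3, against 0.18. The widest SDs with all libraries belonged to Ndufa4l2 (0.43), Cox7a1 (0.41) and the assembly factor Ndufaf8 (0.38), and the narrowest to Atp5a1 (0.05). Across the 92 genes, which share their libraries, Spearman's rho of SD with exon length was -0.42 with all libraries and -0.23 without the library, and of SD with mean CPM -0.43 and -0.64.

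Other genes of the pathway were taken from lists written for this tissue, and their counts are to be read beside the 32.7% of all tested genes called for the interaction (38.7% over 31 libraries) and, at ZT6, the 6.9% called as higher and 8.38% as lower (10.7% and 10.2%). Of 13 TCA cycle enzymes, which feed electrons to complexes I and II, edgeR called 8 for the interaction (11 over 31 libraries), and at ZT6 it called 7 as higher and 1 as lower in SL (10 and 1), with a median log2 difference of 0.29. Fh1, fumarase, differed by 0.40 ± 0.09 at ZT6 and by -0.38 ± 0.09 at ZT18 (SE, edgeR adjusted p = 1.08e-05 for the interaction), and Idh3a, a subunit of isocitrate dehydrogenase, by 0.37 ± 0.08 and -0.02 ± 0.08 (2.35e-05). Cs, citrate synthase, had the opposite signs, with -0.29 ± 0.08 at ZT6 and 0.30 ± 0.09 at ZT18. Of 13 regulators of mitochondrial gene expression, 6 were called for the interaction (9 over 31 libraries): those with the smallest p were the coactivator Ppargc1b (0.70 ± 0.23 at ZT6, edgeR adjusted p = 1.51e-05 for the interaction), the nuclear receptor Esrra (0.36 ± 0.11, 2.57e-05) and the coactivator Ppargc1a (0.44 ± 0.18, 0.00364). At ZT6, 2 of these 13 were called as higher and 1 as lower. Of 17 other OXPHOS and coenzyme Q genes, 5 were called for the interaction (8 over 31 libraries), led by Coq8a at -0.87 ± 0.11 at ZT6 (3.96e-13), Pdss2 at -0.24 ± 0.08 (0.00159) and Coq7 at 0.33 ± 0.14 (0.00296). Of 33 assembly factors outside the naming rule, 7 were called (9), led by Cox10 at 0.37 ± 0.09 (0.000209), Uqcc1 at 0.23 ± 0.08 (0.00039) and Ecsit (0.00272). Of the 7 tested subunits coded by mitochondrial DNA, 0 were called for the interaction with all libraries (1 at an unadjusted p under 0.05) and 1, mt-Nd4, over 31 libraries. By edgeR 0 were called at ZT6, ZT12 or ZT18 in either fit. Their differences were above 0 in all 7 at ZT6 and ZT12 (medians 0.08 and 0.05) and below 0 in all 7 at ZT0 and ZT18 (medians -0.17 and -0.06). At ZT0 edgeR called 0 with all libraries (2 at an unadjusted p under 0.05) and mt-Nd2 over 31 libraries (-0.38 ± 0.13, SE, edgeR adjusted p = 0.0467).

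Many members overlap a gene on the opposite strand, and the strand setting of the counting is not given in the sources used here, so shared reads cannot be told apart. Atp5pb shares 337 exon bases with Wdr77, which had 8917 reads against 161240, and Atp5a1 shares 129 with Haus1, which had 2792 reads against 632873. The overlap is larger relative to the gene for Atp5j, which shares 397 exon bases with Gabpa (21875 reads against 95924). Ndufb5 shares 616 with Mrpl47 (6726 against 38196), and Ndufb2 shares 146 with Braf (11422 against 15167). In some cases the other gene had more reads than the member. Ndufaf3 shares 48 with Impdh2 (10821 against 5192), and Sdhaf2 shares 94 with Cpsf7 (17663 against 12926).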

How the data were processed

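The submitters' processing notes name the genome build GRCm38 (mm10), the aligner STAR 2.7.2b, featureCounts 1.6.2 for counting, and bcl2fastq 2.20.0. The authors deposited whole-number read counts per gene (55471 genes, not normalized) and a log2 expression table of 13432 genes. The largest difference of that table from recomputed log2 CPM (prior count 2) was 0.0794, and it served to choose the members and as an alternative. Counts were scaled by trimmed mean of M values factors (TMM), filtered with filterByExpr by group, and tested with edgeR 4.0.16 (quasi-likelihood, R 4.3.3) in a fit with 8 group means, Benjamini-Hochberg adjustment over all 14456 tested genes (14620 with 31 libraries) and a threshold of 0.05. Each replicate is another mouse. The 48 pairs of libraries within groups all differed by more than counting noise. The members, lists and naming rules were chosen with earlier results of these data known.

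Named genes are the 3 with the smallest interaction p in each complex, up to 6 called genes with the smallest p per other comparison, isoform sets, the extremes of range and spread, and the 3 smallest interaction p of each pathway list. Some genes that this rule names are not reported here. A few further genes are named as examples after their values were seen. Alternatives were DESeq2 1.42.0 and its size factors, limma 3.58.1 with voom and on the authors' log2 table, TMM without mitochondrial and the 20 most abundant genes, other filters, fewer groups, a replicate block and each library left out. The 31-library fit and voom with library quality weights were added after seeing the data. The procedure was tested on simulated data, and the outcome is not reported here.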

Additional observations from a re-analysis of the deposited data

Results flagged for a closer look

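In groups of 4 livers, 4 of the 96 sets tested held a value whose gap to its nearest neighbour was a larger share of the range than the 95% critical value of Dixon's test allows, and chance gives about 1 in 20. The median deviation of the 92 genes in LL ZT12 replicate 3 (0.80 on the log2 scale) took 0.863 of its group's range. Ndufa5 at 98.9 CPM in the same library took 0.943. Sdhd at 264 CPM in SL ZT0 replicate 3 took 0.83 of a narrow range, and Atp5pb at 273 CPM in LL ZT0 replicate 2, below its mates, took 0.857.

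The difference between SL and LL changed over the 4 ZTs in 9 genes by the interaction test of edgeR, with adjusted p of 0.000114 for Ndufaf4, 0.000794 for Sdhd, 0.00123 for Atp5a1, 0.00441 for Atp5pb, 0.0061 for Atp5b, 0.0388 for Ndufv2 and Uqcrc1, and 0.0417 for Ndufa5 and Ndufc2. Of all tested genes 32.7% were called. The log2 difference was above 0 at ZT6 and below 0 at ZT18 in these 9 genes, which were chosen for a changing difference, and above 0 in 85 and 9 of the 92 genes at these times.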

How the results depend on the processing

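Counts are members called of 92. The share of all tested genes called under each alternative is not reported here, and the edgeR shares above do not apply to it. A higher count therefore does not by itself set these genes apart from the rest. With all libraries, DESeq2 gave 15 for the interaction (9 by edgeR), 12 for time of day in LL (6) and 4 at ZT18 (1). Voom with library quality weights gave 25 for the interaction, 7 and 23 for time of day in SL (4) and LL, and 2, 19, 8 and 6 at ZT0 (0), ZT6 (8), ZT12 (3) and ZT18. Without a filter on low counts there was 1 in SL, 2 at ZT6, 7 at ZT12 and 0 at ZT18, and Atp5a1, Atp5b, Atp5pb, Ndufv2 and Uqcrc1 lost the interaction call (edgeR adjusted p 0.0545 to 0.169). Fits of only the groups compared gave 11 in SL, 0 in LL, 18 at ZT6, 0 at ZT12 and 2 at ZT18; the interaction and the mean need every group, so this was not run for them. At ZT18, DESeq2 size factors, the authors' log2 table, TMM without the most abundant genes and a filter of 1 CPM in 16 libraries each gave 2. Over 31 libraries, DESeq2 gave 3 at ZT0 (1 by edgeR) and 10 at ZT12 (2), voom gave 6 at ZT12, and TMM without the most abundant genes gave 6 at ZT18 (10). The cause of these differences was not tested. With 1 library left out, counts ranged from 5 to 43 for the interaction, 1 to 13 and 3 to 30 for time of day in SL and LL, 0 to 0 for the mean, and 0 to 1, 5 to 37, 1 to 17 and 0 to 10 at ZT0, ZT6, ZT12 and ZT18. With a further library left out of the 31, they ranged from 29 to 46, 8 to 17, 13 to 32, 0 to 0, 0 to 3, 19 to 40, 0 to 8 and 3 to 12 in the same order. No result changed sign with its call kept. The median at ZT12 was 0.05 with quality weights and 0.08 without LL ZT12 replicate 3, against -0.17.

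Deviations of same-numbered libraries had a mean correlation of 0.00 (-0.26 to 0.24, 112 pairs). Libraries with different numbers also had a mean of 0.00 (-0.32 to 0.28, 336 pairs). Of the 32 libraries, 9 correlated best with their own number, a count to be read beside these numbers of pairs. The median deviation of the members nevertheless followed the number in part. Replicate 2 was the lowest of its group in all groups but LL ZT12 and LL ZT18, at -0.16 in SL ZT0 and -0.22 in LL ZT6. Replicate 4 was the highest in SL ZT6 (0.18), SL ZT18 (0.09), LL ZT0 (0.07), LL ZT6 (-0.04) and LL ZT18 (0.18). It was not the highest in SL ZT0, SL ZT12 or LL ZT12. Where replicate 4 was the highest, its length slope was, in the order given, -0.032, -0.053, -0.023, 0.002 and -0.039. In SL ZT0, SL ZT12 and LL ZT12 the slope of replicate 4 was -0.001, -0.018 and 0.044. The part of transcript length in these medians was not tested. What the number marks is not given in the labels. With the number as a replicate block the counts were 9 for the interaction, 4 and 7 for time of day in SL and LL, and 0, 9, 3 and 1 at the 4 ZTs. Over 31 libraries the block gave 54 for the interaction, 47 at ZT6, 2 at ZT0, 8 at ZT12 and 13 at ZT18. The share of all tested genes called with the block is not reported here, so whether these genes gained more calls than others cannot be read from these counts. The median difference was 0.18 at ZT6 and -0.11 at ZT18 on the log2 scale, and the median SD within groups 0.20 (0.11 over 31 libraries), so a gene not called may still differ.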
